A study of Homo sapiens with 12 samples.

Results

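The genes followed here are 10 mediators and targets of the NF-kappaB pathway, taken by symbol from the 58884 genes of the deposited table: NFKBIA, NFKB2, RELB, TNFAIP3, BIRC3, ICAM1, CXCL1, CXCL2, CXCL8 and SOCS3. Each symbol matched 1 Ensembl gene, and all 10 passed the filter on low counts, which kept 16537 genes. RNA sequencing was done on 2 human hepatocellular carcinoma lines, HCC-LM3, a line of high metastatic capacity, and Huh-7, which still makes many hepatocyte products. The 2 lines were measured as untreated wild-type cells (HCC-LM3-WT, Huh-7-WT) and as METTL5-KO cells infected with a guide RNA against METTL5 (HCC-LM3-KO, Huh-7-KO), with 3 libraries per group and 12 in all. METTL5 methylates an adenosine in the RNA of the small ribosomal subunit. The labels name no control guide for the wild-type cells, and no clone, culture or batch, so infection, guide and clone cannot be told apart from loss of METTL5. The libraries of a group may be technical replicates, and the p-values measure only the spread between them.

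NF-kappaB is a family of dimeric transcription factors held in the cytoplasm by IkappaB proteins until the IKK kinases mark these for destruction. In the canonical branch tumour necrosis factor, interleukin 1 or microbial products free dimers of RELA and NFKB1, and in the non-canonical branch the NFKB2 precursor is cut so that it can enter the nucleus with RELB. In hepatocytes and liver tumour cells the pathway controls survival, acute-phase proteins, and chemokines that attract neutrophils, and several of its targets, such as NFKBIA and TNFAIP3, switch it off again.

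Summed counts were 17495275 to 26415496 per library. METTL5 had 0 counts in all 6 knockout libraries and 169 to 327 in the 6 wild-type libraries. The Huh-7 knockout libraries stood apart from the other 9. Their TMM factors, which scale libraries for composition, were 0.491 to 0.51 (1.06 to 1.51 elsewhere), ribosomal protein genes took 17.4% to 18% of their counts (7.72% to 9.35% elsewhere), and 17716 to 18282 genes had a count (20496 to 23400 elsewhere). As a check of the labels, 7 hepatocyte markers summed to 12625 to 13503 CPM in Huh-7-WT and 19048 to 19714 CPM in Huh-7-KO, but to 26.2 to 39.3 CPM in HCC-LM3, where APOB and TTR had no count. Of the markers of other cell types, the macrophage list summed to 37.9 to 101 CPM, with PTPRC and CD163 at 0 in 3 groups and a mean of at most 0.0169 CPM in Huh-7-WT. It summed to 46.1 to 52.8 CPM in Huh-7-WT and 96.5 to 101 CPM in Huh-7-KO. The fibroblast list summed to 26.7 to 30.7 CPM in Huh-7-WT and 8.13 to 10.4 CPM in Huh-7-KO, and the endothelial list to 13.2 to 13.9 and 5.71 to 6.04 CPM. The part of any of these in the results was not tested.

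In GENCODE 29 (GRCh38) all 10 are protein-coding. The 3 chemokine genes lie near each other, CXCL8 at chr4:73740506-73743716 and CXCL1 at chr4:73869393-73871242 on the plus strand and CXCL2 at chr4:74097035-74099293 on the minus strand. RELB (chr19:45001430-45038198) and ICAM1 (chr19:10270835-10286615) share a chromosome, as do none of the others: NFKBIA is at chr14:35401511-35404749, NFKB2 at chr10:102394110-102402529, TNFAIP3 at chr6:137867188-137883312, BIRC3 at chr11:102317450-102339403 and SOCS3 at chr17:78356778-78360077.

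The promoter windows of the members are shown first, because they hold the letters by which NF-kappaB dimers recognise DNA. In the RefSeq promoter table (GRCh38.p14), 9 of the 10 members had an entry, with 12 start sites. The table has none for RELB. In the 250 bases before a start site, the kappaB consensus, searched by name on both strands with overlapping matches kept, was present at 7 of the 12 windows, which belong to NFKBIA, NFKB2, TNFAIP3, BIRC3, CXCL1 and CXCL2, and in 9.96% of all 35116 windows of that length. Stretches of 30 bases around a match are given 5′ to 3′ on the gene's strand, with the match in capitals.
NFKBIA, chr14:35404811-35404840, minus strand: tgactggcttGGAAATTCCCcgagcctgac
NFKB2, chr10:102394461-102394490, plus strand: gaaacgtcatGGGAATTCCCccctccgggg
TNFAIP3, chr6:137867182-137867211, plus strand: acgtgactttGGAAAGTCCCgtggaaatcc
BIRC3, chr11:102317275-102317304, plus strand: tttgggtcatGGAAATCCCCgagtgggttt
CXCL1, chr4:73869304-73869333, plus strand: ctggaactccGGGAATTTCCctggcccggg
CXCL2, chr4:74099254-74099283, minus strand: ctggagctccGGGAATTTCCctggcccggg
The same letters stood between -79 and -70 in CXCL1 and between -78 and -69 in CXCL2, counted from the start site, and the 2 windows were identical at 82.3% of 226 aligned bases. The NFKB2 stretch lies before the second of its 3 listed start sites, inside the gene as GENCODE 29 draws it. The CXCL2 and ICAM1 stretches also lie inside their genes, and the TNFAIP3 stretch straddles the first base of its gene, at 137867188.

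The windows of CXCL8, ICAM1 and SOCS3 did not hold the consensus. A related motif chosen after these windows had been seen, GGAANTTCC, which reads the same on both strands and overlaps the consensus in 3 members, was found in 5 members (NFKBIA, ICAM1, CXCL1, CXCL2 and CXCL8) and in 0.826% of all windows. It is shown for the pair without the consensus, in capitals.
CXCL8, chr4:73740467-73740496, plus strand: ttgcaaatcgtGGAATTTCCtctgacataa
ICAM1, chr19:10270923-10270952, plus strand: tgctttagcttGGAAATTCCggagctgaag
The CXCL8 window also held the AP-1 motif TGANTCA between -137 and -131 (6.57% of all windows, both strands), and the ICAM1 window the STAT motif TTCNNNGAA between -75 and -67 (6.57%, both strands). TATAAA on the gene's own strand was found in these 2 members and in 6.80% of windows. A match describes letters and shows no binding.

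The first comparison sets the wild-type lines side by side. In HCC-LM3 the members were weighted towards the non-canonical subunit, with NFKB2 the highest, and towards TNFAIP3 and BIRC3. In Huh-7 the chemokines CXCL1 and CXCL8 were present and ICAM1 was the highest. Of the 10 members, 4 were called higher in HCC-LM3 and 4 lower at a Benjamini-Hochberg adjusted p under 0.05 by edgeR's quasi-likelihood test, beside 41.8% and 41% of all 16537 genes. Libraries of the 2 lines did not overlap for 8 members, beside 82.5% of all genes. These shares are near the background, since the lines differ at most genes.

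Levels between genes are compared in the authors' TPM, which is per length. In HCC-LM3-WT the order was NFKB2 at 127 ± 5.58 TPM (SD, n = 3 for all such values), ICAM1 at 31.4 ± 1.65, NFKBIA at 27.9 ± 1.01, RELB at 19.6 ± 1.66, TNFAIP3 at 10.4 ± 2.59 and SOCS3 at 4.48 ± 0.55. Below them came CXCL2 at 2.31 ± 1.48 and BIRC3 at 1.49 ± 0.52 TPM, whose libraries overlapped, then CXCL8 at 0.083 ± 0.047 and CXCL1 at 0. In Huh-7-WT the order was ICAM1 at 42.7 ± 2.43 TPM, NFKBIA at 27.5 ± 1.26, NFKB2 at 15.5 ± 2.92 and RELB at 12.7 ± 0.13, the last 2 overlapping. CXCL1 at 2.17 ± 0.64, TNFAIP3 at 2.11 ± 0.37 and CXCL8 at 1.94 ± 0.17 TPM overlapped with each other, and so did SOCS3 at 0.99 ± 0.14 and CXCL2 at 0.79 ± 0.30, above BIRC3 at 0.073 ± 0.040.

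NFKB2, the precursor of the p52 subunit, had 211, 168 and 173 CPM (TMM-scaled CPM, used from here on unless TPM is named) in HCC-LM3-WT and 35.4, 33.4 and 34.3 in Huh-7-WT. As in all bulk RNA, fewer cells of a type and less RNA per cell cannot be told apart. The groups did not overlap, a log2 difference of 2.42 (SE 0.10, adjusted p = 4.94e-21). RELB, its partner, had 27.7, 20.5 and 20.5 CPM in HCC-LM3-WT and 25.1, 24.6 and 25.2 in Huh-7-WT. These overlapped (-0.12, SE 0.11, adjusted p = 0.301), but it was called higher with offsets for GC content and length (0.59) and with library totals alone (0.29), and lower without the first HCC-LM3 library (-0.23). Its adjusted p ranged from 1.67e-06 to 0.957 over its alternatives. MAP3K14, the kinase that starts NFKB2 cutting, had a mean of 50.2 CPM in HCC-LM3-WT and 6.76 in Huh-7-WT, a log2 difference of 2.90.

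Among the brakes, TNFAIP3, also known as A20, a ubiquitin-editing enzyme, had 23.4, 27.8 and 27.3 CPM in HCC-LM3-WT and 7.46, 6.87 and 8.76 in Huh-7-WT, a log2 difference of 1.77 (SE 0.13, adjusted p = 4.66e-14). BIRC3, also known as cIAP2, a ubiquitin ligase that protects from cell death, had 115, 214 and 213 counts in HCC-LM3-WT and 5, 5 and 4 in Huh-7-WT (log2 difference 4.68, SE 0.35, adjusted p = 2.78e-14). NFKBIA, the main IkappaB protein, went the other way. It had 24.9, 19.8 and 20.5 CPM in HCC-LM3-WT and 38.1, 34.5 and 35.5 in Huh-7-WT, a log2 difference of -0.73 (SE 0.10, adjusted p = 9.29e-08). The deposited TPM of NFKBIA, given above, was close between the wild-type lines and did not show this difference.

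The neutrophil chemokine CXCL8, or interleukin 8, had 2, 1 and 2 counts in HCC-LM3-WT and 69, 69 and 56 in Huh-7-WT, a log2 difference of -5.70 (SE 0.42, adjusted p = 3.03e-14). CXCL1 had 0 counts in all 6 HCC-LM3 libraries, where a count of 0 allows up to 0.0783 to 0.0951 CPM in a wild-type library (3 counts, counting error only). With 49, 57 and 29 counts in Huh-7-WT, HCC-LM3-WT was at least 21.7-fold lower by that floor per library. CXCL2, its near copy, had 12, 28 and 37 counts in HCC-LM3-WT and 13, 14 and 11 in Huh-7-WT, which overlapped (adjusted p = 0.317). So the 2 paralogs with the same letters at their promoter match differed in whether they were counted at all in HCC-LM3. Their transcripts were identical at 90.6% of 1086 aligned bases, and how the authors shared reads between such copies is not given, so their split is uncertain. The receptors of these chemokines, CXCR1 and CXCR2, had 0 CPM in all 4 groups.

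ICAM1, the adhesion molecule that leukocyte integrins bind, had 63.2, 48.4 and 52.5 CPM in HCC-LM3-WT and 125, 112 and 129 in Huh-7-WT, a log2 difference of -1.16 (SE 0.096, adjusted p = 5.65e-13). ITGAL, a chain of the integrin that binds it, was counted in Huh-7-WT (mean 18.1 CPM) and had 0 CPM in HCC-LM3, while ITGB2, the chain it pairs with, was at most 0.0855 CPM as a group mean. SOCS3, a brake on interleukin 6 signalling that STAT3 induces, had 6.97, 7.34 and 7.03 CPM in HCC-LM3-WT and 3.07, 2.23 and 2.53 in Huh-7-WT (1.43, SE 0.18, adjusted p = 4.98e-09). Interleukin 6 itself was counted in HCC-LM3-WT (IL6, mean 3.71 CPM) and hardly in Huh-7-WT (0.0315 CPM).

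**Figure D1:**
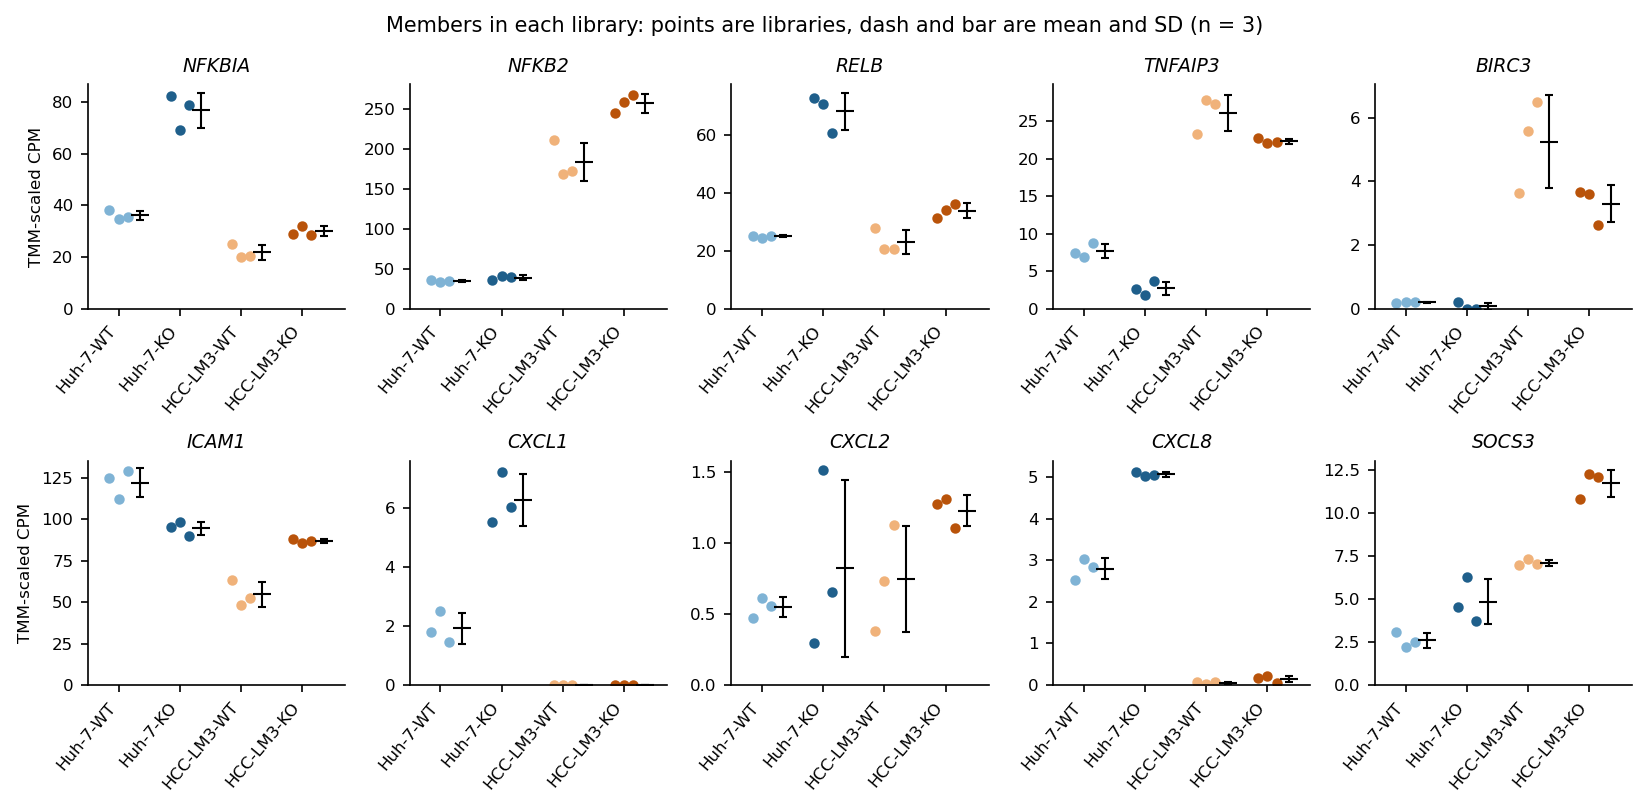
TMM-scaled CPM (vertical axis, linear from 0, a scale per panel) of the 10 members in the 4 groups; points are libraries, the dash and bar are the mean and SD of 3. The HCC-LM3 knockout points of NFKBIA, NFKB2, RELB, ICAM1 and SOCS3 lie above all their wild-type points, and CXCL1 is at 0 in all 6 HCC-LM3 libraries.

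The second comparison asked how the members differed between METTL5 knockout and wild type in HCC-LM3. NFKBIA, NFKB2, RELB, ICAM1 and SOCS3 rose by a log2 fold change of 0.46 to 0.72, and BIRC3 fell. Among all genes 14% were called higher and 12.9% lower, with a median log2 fold change of 0.02 over the 16034 that had a count in this line. Of the 9 members with a value, 5 were called higher and 1 lower, with a median of 0.57. Knockout and wild-type libraries did not overlap for 6 members, beside 38.7% of all genes.

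The non-canonical pair moved alike. NFKB2 had 211, 168 and 173 CPM in wild type and 245, 259 and 268 in knockout, with no overlap, which gave 0.48 on the log2 scale (SE 0.094, adjusted p = 0.000278 by edgeR's quasi-likelihood test, as below). RELB had 27.7, 20.5 and 20.5 CPM in wild type and 31.2, 34.2 and 36.1 in knockout (0.57, SE 0.11, adjusted p = 0.000268). In both genes the first wild-type library lay above the other 2, nearest to the knockout. NFKBIA had 24.9, 19.8 and 20.5 CPM in wild type and 29, 32.1 and 28.6 in knockout (0.46, SE 0.10, adjusted p = 0.00114), and its first wild-type library was again the highest of the 3.

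ICAM1 had 63.2, 48.4 and 52.5 CPM in wild type and 87.9, 85.8 and 87 in knockout, or 0.67 on the log2 scale (SE 0.096, adjusted p = 6.32e-06). The knockout libraries were close together and all above the wild type. In GENCODE 29, AC011511.5 shares 815 exonic bases with ICAM1 on the other strand, and whether the counting used strand is not given, so reads of the 2 cannot be told apart. SOCS3 had 6.97, 7.34 and 7.03 CPM in wild type and 10.9, 12.3 and 12.1 in knockout (0.72, SE 0.15, adjusted p = 0.000618), also with no overlap. The deposited TPM gave the same order for these 5 genes, for example 31.4 ± 1.65 and 44.3 ± 1.98 TPM for ICAM1 in wild type and knockout.

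BIRC3 had 3.65, 5.59 and 6.51 CPM in wild type and 3.68, 3.59 and 2.63 in knockout. The first wild-type library lay among the knockout libraries, and the log2 fold change was -0.67 (SE 0.22, adjusted p = 0.0219). That call ended with the DESeq2 Wald test, with offsets for GC content and length (-0.24), and without the second wild-type, the third wild-type or the third knockout library, and adjusted p ranged from 0.00133 to 0.432 over its 17 alternatives. TNFAIP3 had 23.4, 27.8 and 27.3 CPM in wild type and 22.7, 22 and 22.3 in knockout, with no overlap but no call (-0.23, SE 0.12, adjusted p = 0.173). It was called with library totals alone (-0.39) and without the first wild-type library (-0.31), with adjusted p from 0.0357 to 0.397 over its alternatives.

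The chemokines were low in HCC-LM3 and none was called. CXCL2 had 12, 28 and 37 counts in wild type and 43, 38 and 37 in knockout, or 0.71 on the log2 scale (SE 0.37, adjusted p = 0.157). CXCL8 had 2, 1 and 2 counts in wild type and 6, 6 and 2 in knockout (1.49, SE 0.66, adjusted p = 0.0925). It was called with the GC and length offsets (1.91), with adjusted p from 0.0368 to 0.311 over its alternatives. CXCL1 had no count, so no fold can be given.

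In this line the effect over all genes moved with GC content. The median log2 fold change was -0.39 in genes under 40% GC and 0.31 in genes of 60% or more, while it lay between -0.05 and 0.09 in every class of gene length. The 5 members that rose have 53.1% to 65.4% GC, and BIRC3 has 34.8%. With offsets for GC content and length the 5 stayed called, at 0.21 for NFKB2, 0.26 for RELB, 0.36 for NFKBIA, 0.47 for SOCS3 and 0.48 for ICAM1, which for NFKB2, RELB and SOCS3 is under the main value by more than 1.5 times.

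**Figure D2:**
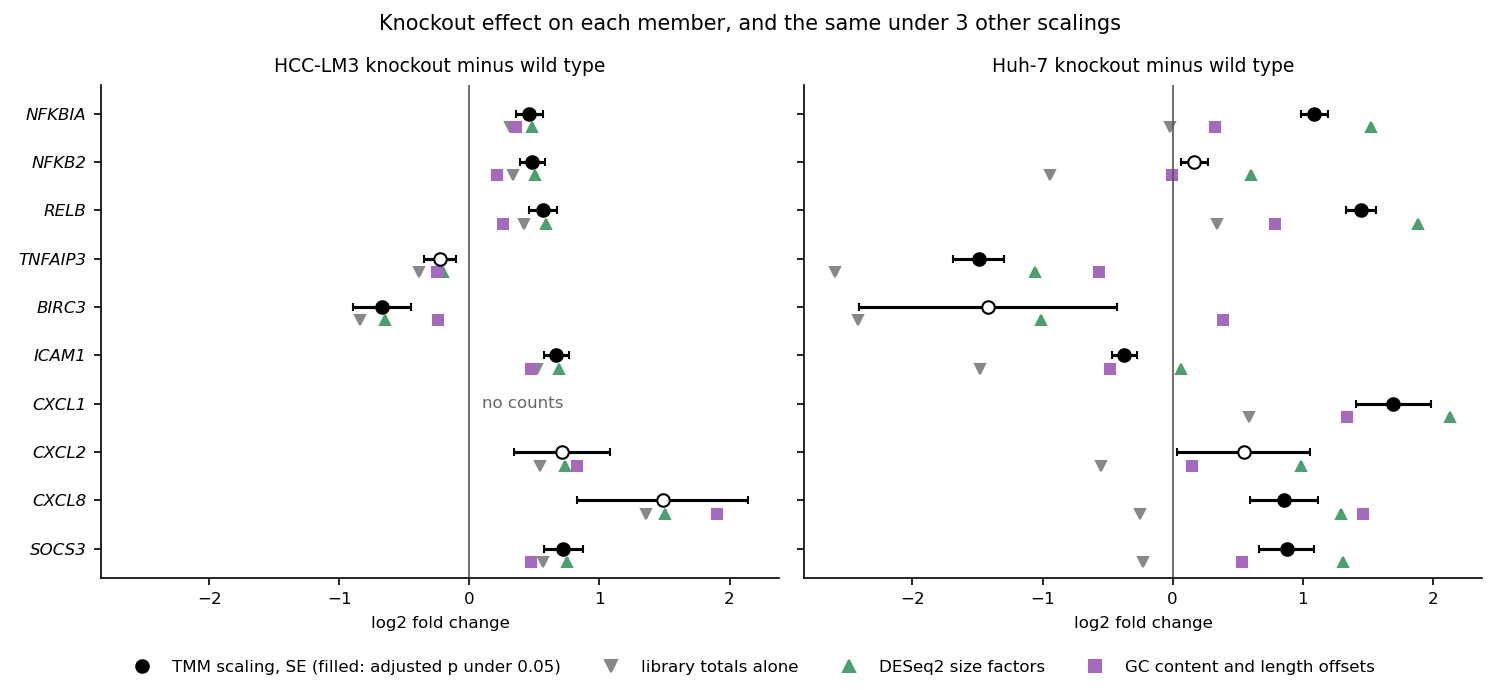
Log2 fold change of knockout minus wild type (horizontal axis) for the members in HCC-LM3 (left) and Huh-7 (right); circles are the TMM values with SE, filled where adjusted p was under 0.05, and the small symbols are the same effect with library totals, DESeq2 size factors, or GC and length offsets. The symbols of a gene lie closer together in HCC-LM3 than in Huh-7, though BIRC3 runs from -0.84 to -0.24 there. In Huh-7 they spread over more than 1 log2 unit for most genes, and NFKBIA runs from -0.02 to 1.53.

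The third comparison did the same in Huh-7, where the answer depended on how libraries were scaled. With TMM scaling RELB, NFKBIA, CXCL1, CXCL8 and SOCS3 rose and TNFAIP3 and ICAM1 fell, so 5 members were called higher and 2 lower, beside 31.7% and 43.2% of all genes. Libraries did not overlap for 7 of 10 members, beside 76.5% of all genes. With library totals alone, which shift the median of all genes by -1.11, only RELB was called higher and 4 members lower (NFKB2, TNFAIP3, BIRC3 and ICAM1). Under that scaling 1993 of all 16537 genes were called higher and 10795 lower. With TMM scaling the median log2 fold change over the 16166 genes with a count in this line was -0.37. Values are also given relative to the median, since a change of library factors alone hardly alters that distance.

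RELB had 25.1, 24.6 and 25.2 CPM in wild type and 73, 70.8 and 60.8 in knockout, or 1.45 on the log2 scale (SE 0.11, adjusted p = 2.1e-13). It was the only member called higher under all the scalings of the counts tried, from 0.34 with library totals to 1.89 with DESeq2 size factors. The deposited TPM was not among those scalings. RELB lay 1.83 above the median gene. NFKBIA had 38.1, 34.5 and 35.5 CPM in wild type and 82.2, 69.1 and 78.8 in knockout (1.09, SE 0.10, adjusted p = 2.32e-11), 1.46 above the median gene. With library totals its value was -0.02, and the deposited TPM went the other way, 27.5 ± 1.26 in wild type and 18.5 ± 2.25 in knockout. NFKB2 had 35.4, 33.4 and 34.3 CPM in wild type and 35.3, 41.2 and 39.5 in knockout, which overlapped (0.17, SE 0.11, adjusted p = 0.151). It lay 0.54 above the median gene. It was called lower with library totals (-0.94) and higher with upper-quartile factors (0.30) and DESeq2 size factors (0.61), and was at -0.0028 with GC and length offsets.

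TNFAIP3 had 7.46, 6.87 and 8.76 CPM in wild type and 2.66, 1.86 and 3.63 in knockout. The knockout libraries, with 27, 16 and 33 counts, were all below the wild type, and the log2 fold change was -1.49 (SE 0.19, adjusted p = 2.3e-08). It was called lower under every alternative run, from -2.60 with library totals to -0.57 with GC and length offsets, and lay at -1.12 from the median gene. BIRC3 had 5, 5 and 4 counts in wild type and 2, 0 and 0 in knockout and was not called (-1.42, SE 0.99, adjusted p = 0.197). It was called lower with library totals (-2.42) and without the first knockout library (-5.41), which left knockout libraries with no count. Its adjusted p ranged from 0.0301 to 0.794 over its alternatives. ICAM1 had 125, 112 and 129 CPM in wild type and 95, 98.2 and 90.1 in knockout (-0.37, SE 0.097, adjusted p = 0.000979). This is close to the median over all genes. It was called lower with 5 of the 6 scalings, among them upper-quartile factors (-0.24) and GC and length offsets (-0.48), and was at 0.07 and not called with DESeq2 size factors.

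Of the chemokines, CXCL1 had 1.79, 2.5 and 1.47 CPM in wild type and 5.52, 7.22 and 6.04 in knockout, with no overlap, which gave 1.70 on the log2 scale (SE 0.29, adjusted p = 4.58e-06). Its raw counts were 49, 57 and 29 against 56, 62 and 55, and with library totals the value was 0.58 (adjusted p = 0.0785, where its alternatives ranged from 7.99e-11 to 0.0785). CXCL8 had 2.53, 3.02 and 2.84 CPM in wild type and 5.13, 5.01 and 5.06 in knockout (0.86, SE 0.26, adjusted p = 0.00362), and -0.25 with library totals. CXCL2 had 13, 14 and 11 counts in wild type and 3, 13 and 6 in knockout, which overlapped (0.55, SE 0.51, adjusted p = 0.34). SOCS3 had 3.07, 2.23 and 2.53 CPM in wild type and 4.54, 6.29 and 3.74 in knockout (0.88, SE 0.21, adjusted p = 0.000333), and -0.23 with library totals.

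In Huh-7 the effect over all genes fell with gene length and rose with GC content. The median log2 fold change was 1.49 in genes under 1000 bases, 0.01 in those of 2000 to 3000 and -1.75 in those of 4000 or more. TNFAIP3 (4432 bases) and BIRC3 (4238 bases), at -1.49 and -1.42, lay 0.25 and 0.33 above the median of their length class. CXCL1 (1097 bases) lay 0.69 above the median of its class, NFKBIA (1558 bases) 0.47, SOCS3 (2734 bases) 0.86 and RELB (2279 bases) 1.44, and ICAM1 (2967 bases) lay at -0.38 from its own. By GC content the median ran from -1.84 in genes under 40% to 0.78 in those of 60% or more. Against their GC class TNFAIP3 lay at -0.85, ICAM1 at -0.93, NFKB2 at -0.61 and SOCS3 at 0.096. RELB lay at 0.67, NFKBIA at 0.94, CXCL2 at 1.18, CXCL1 at 2.33 and CXCL8 at 2.70. Against their length class NFKB2 lay at 0.92 and CXCL2 at -0.46. So TNFAIP3, NFKB2 and CXCL2 lay on opposite sides of the 2 class medians. With offsets for GC content and length NFKBIA was at 0.33, RELB at 0.79, SOCS3 at 0.54, CXCL1 at 1.34, CXCL8 at 1.46, TNFAIP3 at -0.57 and ICAM1 at -0.48. What part length or GC content had in any member's value was not tested beyond these offsets.

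**Figure D3:**
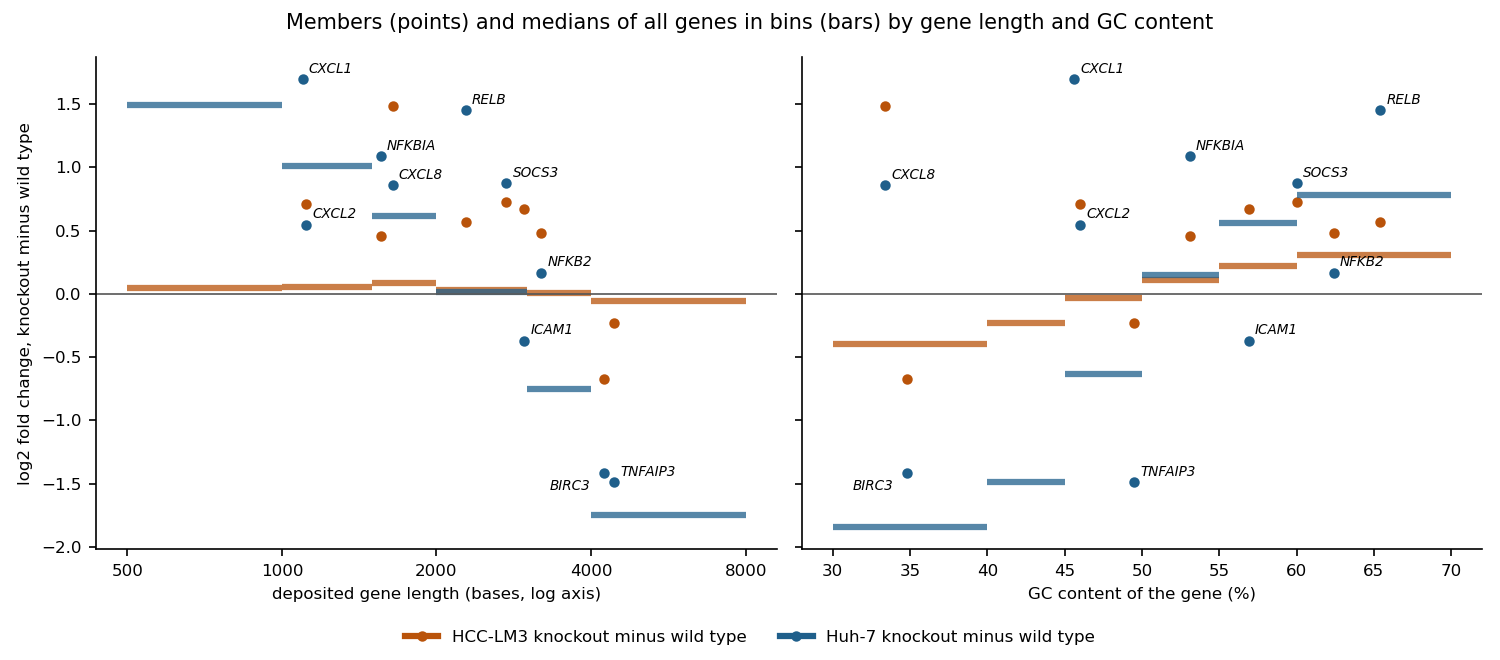
Log2 fold change of knockout minus wild type (vertical axis) against deposited gene length (left, bases, log axis) and GC content (right, percent); points are members, named for Huh-7, and bars are medians of all genes in a class, orange for HCC-LM3 and blue for Huh-7. The blue bars run from 1.49 in genes under 1000 bases to -1.75 in genes of 4000 or more, and BIRC3 and TNFAIP3 lie near the lowest bar.

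Whether the effect differed between the lines was tested by taking the Huh-7 effect from that in HCC-LM3. Of the 9 members with a value, 2 were called higher and 2 lower, beside 37.7% and 23.9% of all genes, whose median difference was 0.44. ICAM1 rose in HCC-LM3 and fell in Huh-7, a difference of 1.04 (SE 0.14, adjusted p = 4.76e-08), which kept its sign and call under all 22 alternatives, with values from 0.62 to 2.0. TNFAIP3 fell in Huh-7 and was not called in HCC-LM3, a difference of 1.26 (SE 0.23, adjusted p = 1.57e-05). That call ended with GC and length offsets (0.32), with adjusted p up to 0.23 over its alternatives. RELB (-0.89, SE 0.16, adjusted p = 9.26e-06) and NFKBIA (-0.63, SE 0.15, adjusted p = 0.000323) rose by more in Huh-7, but with library totals these differences were 0.08 and 0.33, and with GC and length offsets NFKBIA was at 0.03. For SOCS3, which was called higher in each line, the difference was -0.15 (SE 0.26, adjusted p = 0.642). NFKB2 (0.32, adjusted p = 0.0522), BIRC3 (0.75, adjusted p = 0.564), CXCL2 (0.16, adjusted p = 0.877) and CXCL8 (0.63, adjusted p = 0.44) were not called by edgeR, and CXCL1, without a count in HCC-LM3, has no value.

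The rest of the pathway was described with lists of genes outside the 10, and lists are given as counts without a test of their own. In HCC-LM3, 4 of 7 tested NF-kappaB subunits and IkappaB proteins rose and none fell at adjusted p under 0.05, beside 14% and 12.9% of all genes. The same 7 had 3 calls with unadjusted library totals and 2 with GC and length offsets, all of them higher. BCL3, an atypical IkappaB protein that works with p52 dimers, rose from 24.9 ± 2.16 to 40.3 ± 3.20 CPM (log2 fold change 0.70), and RELA, the canonical activating subunit, from 107 ± 13.2 to 145 ± 5.10 CPM (0.44). NFKBIB (0.41) and NFKBIE (0.38), further IkappaB proteins, also rose, but were not called with the offsets. NFKB1 had 38.3 ± 1.12 CPM in wild type and 39.0 ± 1.57 in knockout and was not called (0.03).

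Of 31 other NF-kappaB target genes, 15 rose and 1 fell in HCC-LM3, with a median of 0.37 beside 0.02 over all genes, of which 14% were called higher and 12.9% lower. The count was 8 and 2 with library totals, under which 1199 of all genes were called higher and 3423 lower. With GC and length offsets it was 11 and 2, beside 1643 and 1477 of all genes. The largest increases were in IER3 (0.84), a stress-response gene, the cytokine IL6 (0.67), the AP-1 subunit JUNB (0.66), the kinase PLK3 (0.60) and the cytokine LIF (0.59). IL6 and LIF were not called with library totals, nor LIF with the offsets. IL6 had 3.84, 3.37 and 3.94 CPM in wild type and 5.84, 5.59 and 6.24 in knockout, with no overlap. Among 24 genes of interleukin 6 signalling 4 rose, with STAT3 (0.39) and the kinase gene PIM1 (0.50) among them, and 3 fell, with the receptor chains LIFR (-0.47) and IL6ST (-0.42) among them. Both numbers are near the shares of all genes. The count was 3 and 6 with library totals and 3 and 1 with GC and length offsets, under which LIFR (-0.13) and IL6ST (-0.015) were not called.

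The following counts in HCC-LM3 stand beside 14% of all genes called higher and 12.9% lower, and those for the receptors and adaptors are near these shares. Of 13 IKK and activating kinases 1 rose, the scaffold IKBKG (0.38), and 3 fell, MAP3K7 (-0.84), TBK1 (-0.74) and CHUK (-0.55), with a list median of -0.24. IKBKG and CHUK were not called with GC and length offsets. Of 21 receptors and adaptors 4 rose, with the receptor genes TNFRSF1A (0.56) and LTBR (0.35), and 2 fell, TANK (-0.61) and TRAF5 (-0.52), neither of them called with the offsets. Of 14 ubiquitin editors and other brakes 5 rose, with SHARPIN (0.72) and RNF31 (0.60), which belong to the linear ubiquitin ligase, and 4 fell, with BIRC2 (-0.998), the paralog of BIRC3, and RNF11 (-0.74). Of 10 acute-phase genes with a count, CFB (0.78) and C3 (0.73), both complement genes, rose. ZFP36, which destabilises mRNAs with AU-rich elements, rose from 17.4 ± 1.28 to 30.5 ± 1.22 CPM (0.81). It was 1 of 2 that rose among 9 genes listed for mRNA decay or stabilising, while RC3H2 (-0.41) fell but was not called with the offsets.

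In Huh-7 the same lists split by scaling, and their TMM counts stand beside 31.7% of all genes called higher and 43.2% lower. Of all 16537 genes, 1993 were called higher and 10795 lower with library totals. These became 5164 and 4523 with GC and length offsets, and 6511 and 5853 with DESeq2 size factors. Of 29 other NF-kappaB targets with a count, 16 rose and 6 fell, with 12 and 2 under the GC and length offsets and 6 and 13 with library totals. GADD45B (2.02), IER3 (1.94), IL32 (1.91) and CEBPD (1.77) rose under all 6 scalings, the lowest being 0.29, 0.64, 0.41 and 0.65. Of the 7 subunits and IkappaB proteins 4 rose and 3 fell, with 2 and 3 under the offsets, and with library totals none rose and 5 fell. NFKB1, the canonical p50 precursor, fell from 26.1, 26.7 and 26.5 CPM to 4.93, 3.5 and 7.03 (-2.35), lower in all scalings, and REL fell from a mean of 6.67 to 0.59 CPM (-3.44), a call that ended with GC and length offsets (-0.75). NFKB1 thus fell under all 6 scalings of the counts in Huh-7 while RELB rose under all 6. The deposited TPM is not among these scalings. Other subunits did not all follow these genes. RELA, also canonical, was 1.42-fold higher in knockout between group means of TMM-scaled CPM. NFKB2, also non-canonical, was not called (0.17).

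With TMM scaling, counts for the IKK genes and for the receptors and adaptors were near the shares of all genes. For interleukin 6 signalling the share called higher was smaller and the share called lower larger. Of 13 IKK genes 3 rose and 6 fell, with TAB3 (-3.13) and TAB2 (-2.83). With DESeq2 size factors 5 rose and 6 fell, with GC and length offsets 4 rose and 3 fell, and with library totals all 13 fell. MAP3K7 (-2.03) and CHUK (-1.72) were no longer called with GC and length offsets. Of 21 receptors and adaptors 7 rose, with TNFRSF12A (2.44), the TWEAK receptor, and 8 fell, with TRAF5 (-3.33), IL1R1 (-2.35) and IL1RAP (-2.35), the last not called with GC and length offsets. The receptor count was 8 and 6 with DESeq2 size factors, 7 and 5 with the offsets, and 2 and 15 with library totals. Of 24 interleukin 6 signalling genes 2 rose and 14 fell, where 8 rose and 12 fell with DESeq2 size factors, 5 and 9 with the offsets, and 0 and 20 with library totals. IL6R, the interleukin 6 receptor, fell from 9.77 ± 0.83 to 1.78 ± 0.31 CPM (-2.46), and JAK1 fell by 2.18 on the log2 scale.

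Among 14 acute-phase genes in Huh-7, 8 rose and 6 fell (4 and 7 with library totals, 5 and 6 with the offsets). HAMP, which encodes the iron hormone hepcidin, rose from 4.13, 4.82 and 4.56 CPM to 50.6, 47.2 and 45.3 (3.41), and SAA4 (2.52) and ORM2 (1.71) rose, while FGB (-1.68) and C3 (-1.68) fell. Of 5 chemokine and ICAM1 partners with a count, ICAM4 (1.88), ICAM3 (1.85) and ICAM2 (1.43) rose and ITGAL (-0.80) fell, ITGAL not being called with DESeq2 size factors or with the offsets and ICAM2 losing its call in 2 of the 6 scalings. Of 14 ubiquitin editors 6 rose and 8 fell, among them SHARPIN (1.64) and XIAP (-2.78), but 8 rose and 4 fell with the offsets and 2 rose and 10 fell with library totals.

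**Figure D4:**
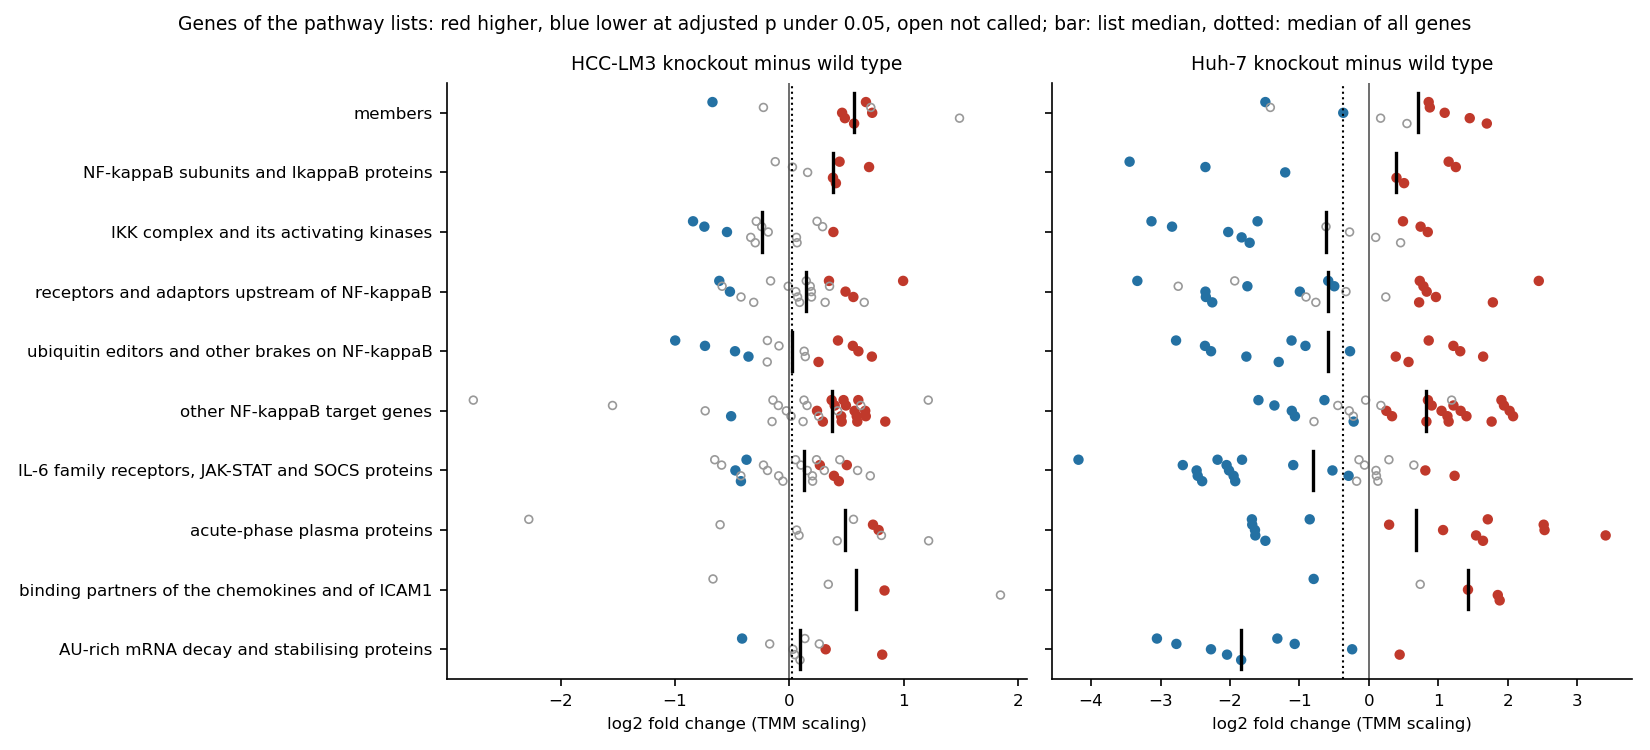
Log2 fold change of knockout minus wild type (horizontal axis, TMM scaling, a scale per panel) for the genes of each list in HCC-LM3 (left) and Huh-7 (right); red points were called higher, blue lower, open points not called, the bar is the list median and the dotted line the median of all genes. In HCC-LM3 15 of 31 other NF-kappaB targets are red and 1 is blue, and in Huh-7 8 of 9 genes of the AU-rich mRNA decay and stabilising list are blue.

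The chemokine mRNAs carry AU-rich elements in their 3′ untranslated region, which speed decay. In GENCODE 29 transcripts ATTTA was present there in 9 of the 10 members, RELB being the exception, and in 64.4% of 18907 genes, and the longer TTATTTATT in 5 members (BIRC3, CXCL1, CXCL2, CXCL8 and TNFAIP3) and 7.52% of genes. The 30 bases with most copies of ATTTA are shown for the chemokines, on the gene's strand (GRCh38), with the copies in capitals.
CXCL1, chr4:73870665-73870694, plus strand: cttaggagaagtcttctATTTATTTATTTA
CXCL2, chr4:74097590-74097619, minus strand: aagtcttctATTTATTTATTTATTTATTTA
CXCL8, chr4:73743108-73743137, plus strand: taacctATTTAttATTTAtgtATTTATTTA
These hold 3, 5 and 4 copies, some of which overlap. Of 9 genes listed for mRNA decay or stabilising, 8 fell in Huh-7 knockout, beside 43.2% of all genes. The 1 that rose, beside 31.7% of all genes, was ZFP36, 1.36-fold between group means. Those that fell most were ZC3H12C (-3.05), HNRNPD (-2.77), RC3H1 (-2.27), ZFP36L1 (-2.04) and ZFP36L2 (-1.84), and RC3H1 turned to 0.42 with GC and length offsets. The count was 6 lower and 2 higher with the offsets, 7 and 1 with DESeq2 size factors, and 9 and 0 with library totals. All genes called under these scalings are counted above. In the same libraries 3 members with the longer element, CXCL1, CXCL8 and CXCL2, had a higher value on the TMM scale. The other 2, TNFAIP3 and BIRC3, had a lower value, and CXCL2 and BIRC3 were not called.

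Across the 12 libraries each member was compared with 9521 or 9522 protein-coding genes of at least 5 CPM, as a description, since the libraries share groups and depth. The genes most like it in log2 CPM were CERS2 and BCKDHA for NFKBIA (Pearson r = 0.99 and 0.99), EXOC3 and DUSP4 for NFKB2 (1.00 and 1.00), RTL8A for RELB (0.99), and ZBTB44 and METTL16 for TNFAIP3 (1.00 and 1.00). For ICAM1 they were PLOD3 (0.99) and ETV5 (0.98), for SOCS3 CLDN4 (0.98) and CLPB (0.98), and for BIRC3 RIMKLB and CUL4A (0.99 and 0.99). CXCL8 was nearest to RND1 and C11orf80, and CXCL1 to MT-CO3 and AP001267.5. CXCL2 had no close match, its best being GATD3A (0.70) and FBLN7 (0.67). None of these was another member. Within groups, as deviations from the group means over the same 12 libraries, 21 of the 45 pairs of members were positively correlated. RELB and ICAM1 deviated together most (r = 0.78), and NFKB2 and BIRC3 deviated in opposite directions (r = -0.91).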

How the data were processed

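The authors deposited 1 table with, per the file headers, an expected count and a TPM value for each library and a gene length. The deposited expected counts are not normalized, and the deposited TPM values are scaled by length. The submitters' processing notes name Bowtie 0.12.2 and builds of the mouse genome, although the identifiers are human. Counter, strand setting and human build remain not given in the sources used here. Groups came from the labels.

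Expected counts were rounded and tested in 1 fit of 12 libraries with edgeR 4.0.16 (R 4.3.3; filterByExpr, TMM, robust quasi-likelihood, 8 residual degrees of freedom), two-sided, with Benjamini-Hochberg adjustment over all 16537 genes and calls at adjusted p under 0.05. For a single gene, exact permutation of 3 against 3 libraries reaches no p below 0.1. Genes without a count in a line were left out of its medians. Alternatives were other scalings, the DESeq2 1.42.0 Wald test, limma-voom (limma 3.58.1), other filters and thresholds, each line alone, the replicate block, GC and length offsets, leaving out each library and, chosen after seeing the data, TMM factors without ribosomal and respiratory genes. Positions, GC content and transcripts came from GENCODE 29 (GRCh38), which held 99.54% of the identifiers.

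The members, lists and alternatives were chosen with earlier results of these data known. The text names all 10 members in each comparison, per list and knockout up to 5 called genes with the largest change and a mean of at least 1 CPM, partners of members with their level, and the 2 genes most alike in pattern (Pearson correlation of log2 of CPM plus 0.5), of which 1 is not reported here. For SOD2, with more than 1 row, the row of highest mean count was used.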

Additional observations from a re-analysis of the deposited data

Results flagged for a closer look

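The knockout effect of 4 members differed between the lines by edgeR's quasi-likelihood test of the interaction, HCC-LM3 less Huh-7, adjusted over all genes. ICAM1 differed by 1.038 (adjusted p = 4.76e-08), higher in 3 of 3 HCC-LM3 knockout libraries and lower in 3 of 3 Huh-7 knockout libraries than in any wild-type library of the line. TNFAIP3 differed by 1.263 (adjusted p = 1.57e-05), with 3 of 3 knockout libraries below wild type in each line. RELB differed by -0.8857 (adjusted p = 9.26e-06) and NFKBIA by -0.63 (adjusted p = 0.000323), each with 3 of 3 knockout libraries above wild type in each line. The ICAM1 difference was called under all 22 alternatives. The other 3 changed their call or sign with library totals or with GC and length offsets, as given above.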

How the results depend on the processing

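Of 679 values under alternatives for 38 member results, 631 kept their direction and their side of the threshold, and 26 reversed. Of those that kept their direction, 15 passed the threshold only under the alternative and 7 only in the main fit. Some of the 26 that reversed also changed their call and are not in these counts. In HCC-LM3, 4440 genes were called, against 2622 at adjusted p under 0.01, 1533 with a log2 change of 0.58 or more in size, and 2743 to 6136 when 1 library was left out (2832 without wild-type replicate 2, 2743 without replicate 3). Members called higher there were 2 in place of 5 with that fold minimum, and members called lower, 1 in the main fit, were 2 with library totals, 0 with the DESeq2 Wald test, GC and length offsets or adjusted p under 0.01, and 0 to 2 when a library was left out.

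In Huh-7, members called higher went from 5 to 1 with library totals. Members called lower went from 2 to 4 with library totals and to 1 with DESeq2 size factors, the Wald test or the fold minimum, and were 2 to 3 when a library was left out (BIRC3 was called, at -5.41, without knockout replicate 1). Library totals reversed NFKBIA (-0.0185), NFKB2 (-0.94), CXCL2 (-0.55), CXCL8 (-0.25) and SOCS3 (-0.23). GC and length offsets reversed NFKB2 (-0.0028) and BIRC3 (0.39), size factors and the Wald test reversed ICAM1 (0.0686 and 0.0311), and leaving out a library gave CXCL2 -0.21 (without knockout replicate 2) to 0.98.

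For the difference between lines, members called higher went from 2 to 6 and lower from 2 to 0 with library totals, and both to 1 with GC and length offsets. Library totals reversed NFKBIA (0.33), RELB (0.0793) and SOCS3 (0.80), and the offsets reversed NFKBIA (0.0335) and BIRC3 (-0.63). Size factors and the Wald test reversed NFKB2 (-0.0995 and -0.0695) and CXCL2 (-0.25 and -0.23). Leaving out a library gave CXCL2 -0.27 to 0.92 (-0.20 without HCC-LM3 wild-type replicate 1, -0.27 without Huh-7 knockout replicate 1) and SOCS3 -0.30 to 0.0631 (the latter without Huh-7 knockout replicate 2). Between the wild-type lines RELB reversed with library totals (0.29), with the offsets (0.59) and without HCC-LM3 replicate 2 or 3 (0.0076 each). The cause was not tested.

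Of called genes, 5247 were higher and 7152 lower in Huh-7, against 1993 and 10795 with library totals, 6511 and 5853 with size factors, and 5164 and 4523 with the offsets. In HCC-LM3 2308 and 2132 became 1199 and 3423 with library totals. For the difference, 6233 and 3953 became 9504 and 1574, 4893 and 5103, and 3806 and 4199, and for the wild-type lines 6910 and 6775 became 8430 and 5429 with library totals. Same-numbered libraries did not deviate together (correlations of -0.07 to 0.07). With 3 libraries per group this cannot exclude pairing, and the labels do not say whether the numbers pair the samples. With the replicate block 3989 genes were called in HCC-LM3, 12251 in Huh-7, 9962 for the difference and 13568 between the lines, and the counts of members called did not change. BIRC3 in Huh-7 rests on 0 to 5 counts a library and CXCL8 in HCC-LM3 on 1 to 6, so their precision is low.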
